A study of Mus musculus with 9 samples.

Results

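The genes described here are 10 components of the JAK-STAT pathway and its feedback inhibitors: the shared receptor subunit Il6st, the kinases Jak1 and Jak2, the transcription factors Stat3, Stat5a and Stat5b, and the inhibitors Socs1, Socs2, Socs3 and Cish. They were picked by name from the 18193 genes with a probe set on the array, with earlier results of these data known, and all 10 were among the 10613 genes whose signal was high enough to be tested. They had 28 probe sets, and the one described for each gene was chosen by its mean log2(signal + 16) over the 9 arrays, so that no difference between groups entered that choice. The arrays measured RNA of NIH 3T3, a long-established fibroblast line from mouse embryos, taken 5 days after transduction with a retroviral vector for a short hairpin RNA (shRNA). There were 3 biological replicates each with Ube2m shRNA, Ube2f shRNA and control shRNA. Both targets are E2 enzymes, which hand the ubiquitin-like protein NEDD8 on to cullins, and the title of the series asks how E2 and RING proteins pair to modify particular cullins. The labels describe the cells of all 3 groups as expressing Ube2f, without saying whether from an added construct, and give 1 vector per target in 1 cell line, with no hairpin sequence.

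In this pathway a cytokine brings receptor chains together, JAK kinases bound to them phosphorylate the receptor and the STAT proteins, and the STATs enter the nucleus and switch on genes. Among the first genes switched on are Cish and the SOCS genes, whose proteins bind receptors or JAKs and damp the signal. Through their SOCS box these inhibitors recruit elongins, a cullin (mainly CUL5) and its RING partner RNF7, a cullin ligase that is itself switched on by NEDD8.

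STATs bind a palindromic DNA motif, which was looked for in the members' promoters because 4 of the genes are known STAT targets. The motif TTCNNNGAA was searched in RefSeq promoters of build GRCm38.p6, from 250 bases before to 50 after the start site. It reads the same on both strands, and no other motif was searched. Promoters were listed for 9 of the 10 genes, 11 promoters in all, and 2 of them held the motif. The gene without a listed promoter was Socs2, which was therefore not searched. Of all 32851 promoters listed, 2726 held it (8.3%) and 150 held it at least 2 times (0.457%). The promoters of Cish (chr9:107296409-107296708, + strand) and Socs3 (chr11:117969317-117969616, - strand) were those that held it, and the promoter of Socs1 (chr16:10785487-10785786, - strand) is shown beside them as a feedback inhibitor without these letters in the window. Capitals mark the motif.
Cish promoter: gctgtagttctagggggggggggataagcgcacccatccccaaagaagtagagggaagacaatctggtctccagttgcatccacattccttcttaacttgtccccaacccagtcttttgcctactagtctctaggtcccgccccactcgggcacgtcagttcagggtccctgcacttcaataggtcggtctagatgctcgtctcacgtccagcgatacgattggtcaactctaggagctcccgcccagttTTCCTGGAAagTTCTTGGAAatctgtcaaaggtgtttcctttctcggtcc
Socs3 promoter: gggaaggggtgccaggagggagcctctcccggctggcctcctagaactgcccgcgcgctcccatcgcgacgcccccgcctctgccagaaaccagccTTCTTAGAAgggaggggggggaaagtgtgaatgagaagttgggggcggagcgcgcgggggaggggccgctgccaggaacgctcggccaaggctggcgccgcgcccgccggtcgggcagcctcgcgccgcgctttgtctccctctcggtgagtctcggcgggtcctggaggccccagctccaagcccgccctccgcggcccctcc
Socs1 promoter: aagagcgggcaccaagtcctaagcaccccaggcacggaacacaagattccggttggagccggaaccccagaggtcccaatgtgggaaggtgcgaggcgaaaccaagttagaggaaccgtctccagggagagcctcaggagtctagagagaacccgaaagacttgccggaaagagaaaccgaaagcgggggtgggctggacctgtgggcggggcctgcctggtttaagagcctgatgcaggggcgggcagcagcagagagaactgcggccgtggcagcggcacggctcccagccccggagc
Counting the first base after the start site as 1, the Cish motifs began at bases 1 (TTCCTGGAA) and 12 (TTCTTGGAA), and the Socs3 motif at base -154 (TTCTTAGAA). A match describes these letters only and does not show that a STAT binds there.

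On the probe set with the highest signal, Ube2f read 134.9, 117.9 and 143.8 on the Ube2f shRNA arrays, against 2366.7, 2492 and 2757.1 on the control arrays (MAS5 signal, a linear intensity; log2 fold change -4.11). No probe set carried the name Ube2m alone, so the other knockdown could not be checked. Each array's trimmed mean signal was 500, but the median signal was 53.1 to 58.3 on replicates 1 and 2 and 72.9, 73.2 and 63.8 on replicate 3 of the Ube2m, Ube2f and control groups, so differences are also given within replicates 1 and 2 and within replicate 3 where these part. The 3' end of beta-actin gave 1.82 times the signal of its 5' end on control replicate 1 and 1.24 to 1.35 times on the other arrays. Of 12 fibroblast markers 11 passed the low-signal filter, the exception being Lum (3.8 to 39.3). Summed fibroblast marker signal was 135000 to 152100, 153500 to 174300 and 138600 to 170300 in the Ube2m, Ube2f and control groups. For leukocyte markers the sums were 830.9 to 1092, 605.2 to 718.8 and 804.7 to 884.5, with 2 of 9 above the low level and Ptprc at 1.4 to 36.3. The epithelial sums were 5787 to 6502, 2718 to 4180 and 3239 to 5348, with 3 of 7 above it, and none of 6 endothelial markers was. Single markers moved within these sums. With Ube2m shRNA 3 of the 11 fibroblast markers fell: Dcn, a collagen-binding proteoglycan, to 184 ± 29.9, against 658 ± 77.6 with control shRNA (-1.75, adjusted p = 0.000132), Col5a1 (-0.48, adjusted p = 0.00731) and Thy1 (-0.7, adjusted p = 0.0163; 0.0757 and 0.0679 without Ube2m replicates 1 and 2). With Ube2f shRNA 2 rose, Pdgfra (0.72, adjusted p = 0.00997) and Dcn (0.68, adjusted p = 0.0493, kept in 2 of 9 fits without 1 array). Between the hairpins 5 were lower with Ube2m than with Ube2f shRNA, Dcn by the most (-2.44, adjusted p = 4.04e-06), and the epithelial keratin Krt14 (0.98, adjusted p = 0.00599) and the leukocyte marker Cd14 (0.52, adjusted p = 0.0294) were higher. The Cd14 call was kept in 4 of 9 fits without 1 array. With arrays centred on their medians neither passed (adjusted p = 0.207 for Cd14 and 0.0599 for Krt14). Among all genes tested, 6.12% were called lower with Ube2m shRNA and 2.23% higher with Ube2f shRNA. Between the hairpins 9.38% were called lower and 6.37% higher. The part of all these markers in the results below was not tested.

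On their main probe sets all 4 feedback inhibitors rose with Ube2f shRNA, and none of the 6 receptor, kinase and STAT genes passed the test in that comparison. One of these inhibitors, Socs1, passed the low-signal filter only through its shRNA arrays, as its control mean of 50.9 lay under the low level of 53.8. With Ube2m shRNA the inhibitors went different ways: Socs3 rose, Socs2 fell, and Socs1 and Cish did not pass. The test was limma's on log2(signal + 16) over all 9 arrays, with p adjusted over the 10613 genes and a threshold of 0.05. In the Ube2f comparison with control 4 of 10 members were called, where 5.19% of all genes were called, 2.23% as higher and 2.96% as lower. The 4 inhibitors had a median log2 fold change of 1.01 and the other 6 genes one of -0.06, beside 0.01 for all genes tested. In the Ube2m comparison 3 of 10 were called, 1 higher and 2 lower, where 9.71% of all genes were called, 3.59% as higher and 6.12% as lower. The members' median was -0.25 there, beside -0.04 for all genes. Both comparisons use the same 3 control arrays. In bulk RNA, fewer cells that express a gene and less RNA per cell cannot be told apart.

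Counts of called members depended on single arrays. Each array was left out in turn, and 3 of these 9 fits per comparison drop an array of the group not compared. Such a fit keeps the difference between groups and changes only the estimate of the spread. In the Ube2f comparison the count was 2 without Ube2f replicate 2 and 2 without control replicate 1. In the Ube2m comparison it was 0 without Ube2m replicate 1, 0 without Ube2m replicate 2, 1 without Ube2m replicate 3 and 1 without control replicate 1. The share of all genes called also fell in these fits, to between 3.66% and 7.75% in the Ube2m comparison. In the Ube2f comparison it was 3.22% without Ube2f replicate 2 and 2.65% without control replicate 1. Signals of both groups were fully apart for 5 of 10 members in the Ube2f comparison with control and for 6 of 10 in the Ube2m one, where this held for 23.2% and 29.7% of all genes. Of all genes tested, 11.6% lay wholly higher and 11.6% wholly lower in the Ube2f group, and 11.6% higher and 18% lower in the Ube2m group.

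**Figure D1:**
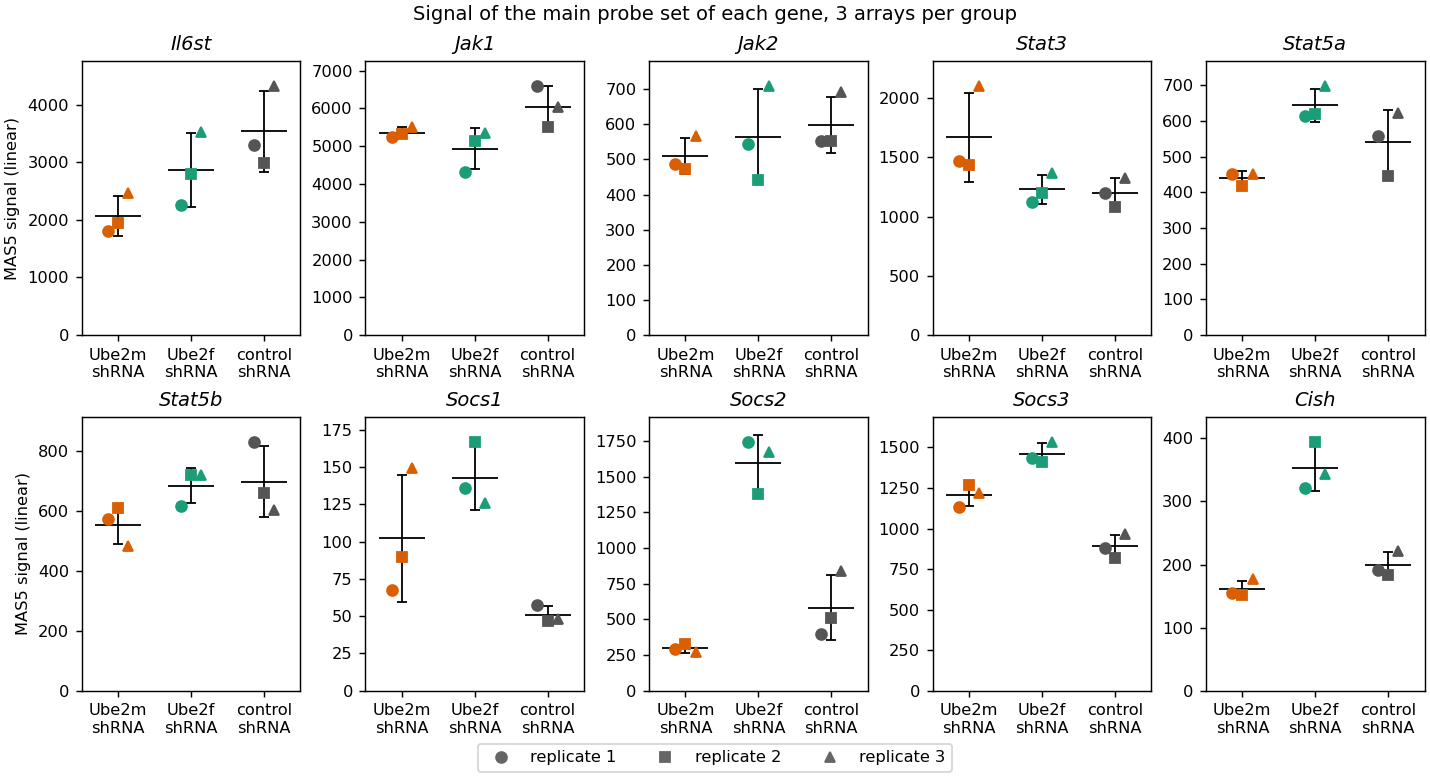
Each panel plots 1 gene, with the 3 arrays of the Ube2m, Ube2f and control groups along the horizontal axis and the linear MAS5 signal of its main probe set on the vertical axis, which starts at 0. Symbols mark replicates, and bars give the mean ± SD. The 3 Ube2f arrays of Socs1, Socs2, Socs3 and Cish all lie above the controls, while those of Il6st, Jak2, Stat3, Stat5a and Stat5b overlap them.

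Socs2, which restrains growth hormone receptor signalling, changed in opposite directions with the 2 hairpins. Its signal was 289.3, 327.7 and 271.9 on the Ube2m arrays, 1746.8, 1378.1 and 1675.3 on the Ube2f arrays and 400.4, 508.8 and 838.2 on the control arrays. The 3 groups did not overlap: every Ube2m array was below every control, and every Ube2f array above. With Ube2f shRNA it averaged 1600 ± 196, against 582 ± 228 with control shRNA (SD, n = 3 each), a 2.81-fold rise (log2 fold change 1.49, SE 0.21, adjusted p = 0.00183). The rise was 1.75 over replicates 1 and 2 and 0.99 in replicate 3, and the call was kept in 9 of 9 fits that left out 1 array. With Ube2m shRNA it averaged 296 ± 28.6, which was a fall on the log2 scale (-0.88, SE 0.21, adjusted p = 0.024). That fall was -0.53 over replicates 1 and 2 and -1.57 in replicate 3, where the control signal was highest. It missed the threshold without Ube2m replicate 1 (adjusted p = 0.0786), Ube2m replicate 2 (0.0574) or Ube2m replicate 3 (0.0577). With replicate 3 as a batch term, a fit that called 20% of all genes, the adjusted p was 0.00626.

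The 3 probe sets of Socs2 with the highest means over the 9 arrays separated the groups, and the other 3 did not. The second, 1418507_s_at, averaged 229 ± 52.9, 1130 ± 191 and 436 ± 67 in the Ube2m, Ube2f and control groups. Fitted on its own among 19684 probe sets, it fell with Ube2m shRNA (-0.9, adjusted p = 0.0219) and rose with Ube2f shRNA (1.34, adjusted p = 0.00377). The third, 1438470_at, gave -1.29 (adjusted p = 0.0666) and 1.23 (adjusted p = 0.0999) without passing, although its groups did not overlap either. It read 32.4, 2.3 and 25.8 on the Ube2m arrays, 165.1, 175.5 and 184.5 on the Ube2f arrays and 46.2, 75.6 and 79.3 on the control arrays, so its Ube2m and control signals lay near or under the low level of 53.8. Of the other 3, with group means of 16.9 to 99.5, none separated either shRNA group from the controls. Averaged over all its probe sets, Socs2 did not pass with Ube2m shRNA (-0.40, adjusted p = 0.307) and still rose with Ube2f shRNA (0.98). Of the members' 26 probe sets above the low level, 5 passed with Ube2m shRNA and 6 with Ube2f shRNA, where 5.37% and 3.39% of all probe sets did.

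Cish, which competes with STAT5 for phosphorylated receptors, rose with Ube2f shRNA. Its signal was 155.2, 151.2 and 176.3 on the Ube2m arrays, 322, 394.7 and 343.9 on the Ube2f arrays and 191.3, 182.9 and 222.2 on the control arrays. All Ube2f arrays stood above the other 6, and the Ube2m arrays lay just below the controls without overlap. The Ube2f mean was 354 ± 37.3, against 199 ± 20.7 in the controls (SD, n = 3 each), a 1.72-fold rise (log2 fold change 0.78, SE 0.16, adjusted p = 0.0153). It missed the threshold without Ube2f replicate 2 (adjusted p = 0.0655) or control replicate 1 (adjusted p = 0.0505), with log2 fold changes of 0.7 to 0.86 over the 9 fits. Centring the arrays on their medians gave an adjusted p of 0.0648, and a beta-actin covariate one of 0.065. With Ube2m shRNA the value was -0.28 (95% interval -0.63 to 0.07, adjusted p = 0.312). Cish had 1 probe set, and its promoter carried the pair of motifs shown above.

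Socs3 inhibits the JAKs bound to Il6st and is a classical STAT3 target. Its main probe set, 1455899_x_at, read 1134.8, 1268.3 and 1218.7 on the Ube2m arrays, 1433.7, 1411.6 and 1535.6 on the Ube2f arrays and 882.9, 820.3 and 965.7 on the control arrays. The controls were lowest and the Ube2f arrays highest, and no groups overlapped. With Ube2f shRNA it was 1.63-fold higher (log2 fold change 0.71, SE 0.11, adjusted p = 0.00254), a call kept in 9 of 9 fits without 1 array. With Ube2m shRNA it was 1.35-fold higher (0.44, SE 0.11, adjusted p = 0.0249). That smaller rise missed the threshold without Ube2m replicate 1 (adjusted p = 0.0609), Ube2m replicate 2 (0.112), Ube2m replicate 3 (0.0584), control replicate 1 (0.0653) or control replicate 2 (0.0784). It also missed it when arrays were centred on their medians (0.35, adjusted p = 0.199) and with a beta-actin covariate (0.43, adjusted p = 0.0709). With replicate 3 as a batch term, a fit that called 20% of all genes, the adjusted p was 0.00431.

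The other Socs3 probe sets gave smaller values, and none passed. Probe set 1456212_x_at averaged 762 ± 173, 1060 ± 91.7 and 784 ± 138 in the Ube2m, Ube2f and control groups, with log2 fold changes of -0.05 (adjusted p = 0.91) and 0.43 (adjusted p = 0.222) against control, and its Ube2f arrays lay above the controls without overlap. Probe set 1416576_at averaged 415 ± 88.5, 538 ± 79.1 and 444 ± 118, with -0.08 and 0.29. Endings in _x_at mark probe sets whose probes can also match other transcripts. With such probe sets left out, Socs3 rested on 1416576_at and passed in neither comparison: the log2 fold change was -0.08 (adjusted p = 0.862) with Ube2m shRNA and 0.29 (adjusted p = 0.484) with Ube2f shRNA. By the mean of its probe sets Socs3 gave 0.1 with Ube2m shRNA (adjusted p = 0.772) and 0.48 with Ube2f shRNA (adjusted p = 0.119). The rise of Socs3 thus passed the threshold on 1 of its 3 probe sets. With Ube2f shRNA the other probe sets were also higher than control, and with Ube2m shRNA the sign was not shared.

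Socs1 blocks JAK catalytic activity and is a target of interferon signalling. Its single probe set read 67.7, 89.4 and 149.4 on the Ube2m arrays, 136.1, 167.1 and 125.7 on the Ube2f arrays and 57.8, 46.6 and 48.3 on the control arrays. Both shRNA groups lay above the controls without overlap, and the control values straddled the signal of 53.8 used as the low level. Their mean was 50.9, so Socs1 entered the test only through the shRNA arrays, where its signal was high. Its call is thus not independent of the filter. With Ube2f shRNA it rose 2.37-fold (log2 fold change 1.24, SE 0.27, adjusted p = 0.02). The log2 fold change depended on the constant added before taking logs, from 0.85 with 64 to 1.42 with 4. It missed the threshold without Ube2f replicate 1 (adjusted p = 0.0739), Ube2f replicate 2 (0.0804), control replicate 1 (0.0514) or control replicate 2 (0.0523), as it did with no filter on low signals (0.0533) and with a beta-actin covariate (0.0551). With Ube2m shRNA the value was 0.77 (95% interval 0.18 to 1.35, adjusted p = 0.0982), made of 0.47 over replicates 1 and 2 and 1.36 in replicate 3.

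Il6st, or gp130, is the signalling chain shared by receptors for IL-6, LIF and oncostatin M, and it fell with Ube2m shRNA. Its main probe set read 1802.3, 1954.5 and 2467.6 on the Ube2m arrays, 2253.3, 2791 and 3534.9 on the Ube2f arrays and 3301.4, 2983.9 and 4325.5 on the control arrays. Replicate 3 was highest in each group, and the Ube2m and control arrays did not overlap. The Ube2m mean of 2070 ± 349 stood against 3540 ± 701 in controls (SD, n = 3 each; log2 fold change -0.76, SE 0.18, adjusted p = 0.021). The call was lost without Ube2m replicate 1 (adjusted p = 0.0924), Ube2m replicate 2 (0.082), control replicate 1 (0.062) or control replicate 3 (0.055). With replicate 3 as a batch term, a fit that called 20% of all genes, the adjusted p was 0.000137. With Ube2f shRNA the value was -0.31 (95% interval -0.7 to 0.08, adjusted p = 0.366; 0.0391 with replicate 3 as a batch term). In the Ube2f comparison the batch term called 13.8% of all genes.

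The 4 probe sets of Il6st split into pairs. Probe set 1452843_at averaged 1570 ± 17.8, 1510 ± 114 and 2200 ± 104 in the Ube2m, Ube2f and control groups, and fitted on its own it fell with both hairpins (-0.48, adjusted p = 0.018 with Ube2m shRNA; -0.54, adjusted p = 0.0144 with Ube2f shRNA). The remaining pair, 1460295_s_at and 1421239_at, passed in neither comparison. On both, control replicate 1 was far below the other controls: 460.7 beside 1166.4 and 1117.5, and 62 beside 320.3 and 151.2. That array also had the highest 3' to 5' beta-actin ratio. With that ratio as a covariate, a fit chosen after seeing the data, the value on the main probe set was -0.82 and did not pass (adjusted p = 0.0533), and by the mean of all probe sets it was -0.14 (adjusted p = 0.767).

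**Figure D2:**
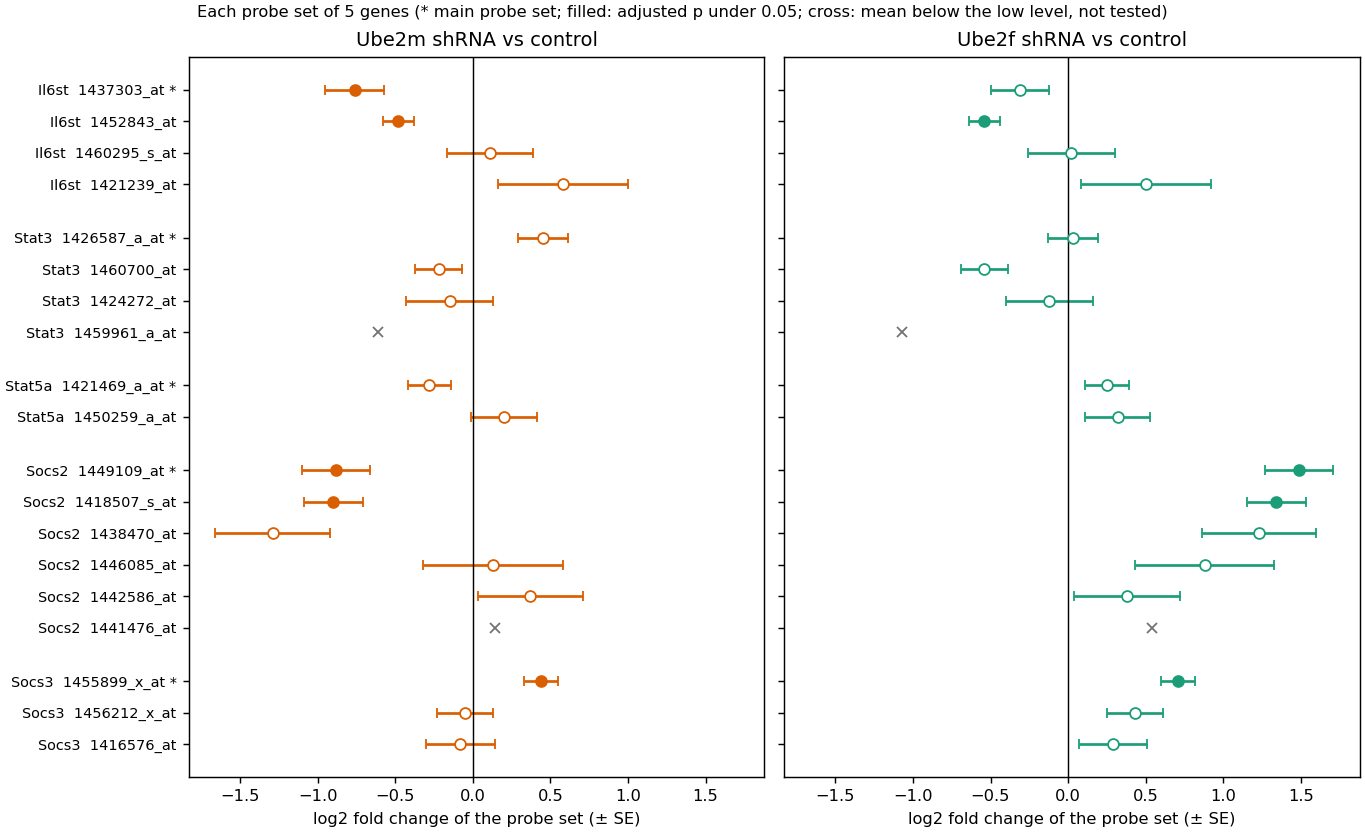
The horizontal axis gives the log2 fold change of each probe set of Il6st, Stat3, Stat5a, Socs2 and Socs3 against control, with Ube2m shRNA on the left and Ube2f shRNA on the right; bars are ± SE of a fit over all probe sets. Filled points passed, open points did not, and crosses were below the low level. For Socs3 only the main probe set is filled, and for Socs2 the 2 with the most signal are.

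Jak1 and Jak2, the kinases that sit on these receptors, were not called in any comparison. Jak1 read 5241.3, 5334.4 and 5512.7 on the Ube2m arrays, 4314.1, 5132.7 and 5350 on the Ube2f arrays and 6595.3, 5503.8 and 6047.6 on the control arrays. The Ube2f arrays lay below every control, but the log2 fold change of -0.3 did not pass (95% interval -0.53 to -0.06, adjusted p = 0.145). With Ube2m shRNA it was -0.17 (95% interval -0.41 to 0.07, adjusted p = 0.371). Jak2 read 487, 472.9 and 567.9 with Ube2m shRNA, 542.6, 441.7 and 709.2 with Ube2f shRNA and 553.5, 551.4 and 691.6 with control shRNA, and the groups overlapped. Its log2 fold changes were -0.22 (95% interval -0.59 to 0.15) and -0.1 (95% interval -0.47 to 0.27) with Ube2m and Ube2f shRNA. None of the other probe sets of either kinase passed.

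Stat3, which carries signals from Il6st, had its highest signals on the Ube2m arrays. They were 1471.7, 1434.9 and 2103.7 there, 1124.6, 1202.7 and 1365.6 on the Ube2f arrays and 1201.1, 1079.3 and 1330.4 on the control arrays. The Ube2m arrays overlapped neither other group, yet the log2 fold change against control of 0.45 did not pass (95% interval 0.12 to 0.78, adjusted p = 0.0828), with replicate 3 furthest out (0.65 in that replicate, 0.35 over the others). It passed with replicate 3 as a batch term (adjusted p = 0.00543), with the replicate number as a block (0.00985) and when arrays were centred on the genes tested (0.53, adjusted p = 0.0422). Those fits called 20%, 17.6% and 9.1% of all genes, against 9.71% in the main fit. Stat3 did not move that way with Ube2f shRNA. With Ube2f shRNA it was 0.03 (95% interval -0.3 to 0.36, adjusted p = 0.937). The second probe set, 1460700_at, gave -0.22 with Ube2m shRNA and -0.54 with Ube2f shRNA, and neither passed (adjusted p = 0.427 and 0.078).

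Stat5a and Stat5b, close relatives that act downstream of the growth hormone receptor, passed in neither comparison with control. Stat5a read 452.9, 419.4 and 452.6 on the Ube2m arrays, 613.4, 620.9 and 698.6 on the Ube2f arrays and 557.7, 446.7 and 624.1 on the control arrays. The controls overlapped both shRNA groups, with log2 fold changes of -0.28 (adjusted p = 0.248) for Ube2m shRNA and 0.25 (adjusted p = 0.347) for Ube2f shRNA. Stat5b read 571.9, 610.5 and 482.5 on the Ube2m arrays, 616.2, 719.7 and 718.8 on the Ube2f arrays and 831.6, 659.6 and 603.4 on the control arrays. Its log2 fold changes were -0.32 (95% interval -0.64 to 0, adjusted p = 0.204) for Ube2m shRNA and -0.02 (95% interval -0.34 to 0.3, adjusted p = 0.966) for Ube2f shRNA.

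Set directly against each other, the Ube2m arrays were lower than the Ube2f arrays for Socs2, Cish and Stat5a, and no member was called higher. These 3 of 10 stand beside 15.8% of all genes called, 6.37% as higher and 9.38% as lower. The arrays did not overlap for 6 of 10, beside 34.4% of all genes (13.7% higher, 20.6% lower). Socs2 averaged 296 ± 28.6 with Ube2m shRNA and 1600 ± 196 with Ube2f shRNA (log2 difference -2.37, SE 0.21, adjusted p = 1.74e-05). For Cish the means were 161 ± 13.5 and 354 ± 37.3 (-1.06, SE 0.16, adjusted p = 0.000835). Both passed in 9 of 9 fits that left out 1 array. Stat5a averaged 442 ± 19.3 and 644 ± 47.2 (-0.53, SE 0.14, adjusted p = 0.0224), a call lost without Ube2m replicate 1 (adjusted p = 0.0603), Ube2m replicate 2 (0.0873), Ube2f replicate 1 (0.0544), Ube2f replicate 2 (0.0505) or Ube2f replicate 3 (0.0653). Its second probe set, 1450259_a_at, gave -0.12 (adjusted p = 0.808), and the mean of both -0.32 (adjusted p = 0.169). Of the 26 probe sets of the members above the low level 5 passed, where 10.8% of all probe sets did.

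The other inhibitors did not pass between the hairpins. Socs3 differed by -0.27 (95% interval -0.5 to -0.04, adjusted p = 0.113) and Socs1 by -0.48 (95% interval -1.07 to 0.11, adjusted p = 0.275). For Socs1 the sign parted between replicates, -0.83 over replicates 1 and 2 and 0.22 in replicate 3. Il6st differed by -0.45 (adjusted p = 0.119), Stat3 by 0.42 (adjusted p = 0.085) and Stat5b by -0.3 (adjusted p = 0.204). With replicate 3 as a batch term Socs3 (adjusted p = 0.0373), Il6st (0.00296) and Stat3 (0.00565) passed, and with the replicate block Il6st (0.00447) and Stat3 (0.00993) did. Those fits called 25.6% and 23.5% of all genes between the hairpins, against 15.8% in the main fit. Jak1 differed by 0.13 (95% interval -0.11 to 0.36) and Jak2 by -0.12 (95% interval -0.49 to 0.25).

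**Figure D3:**
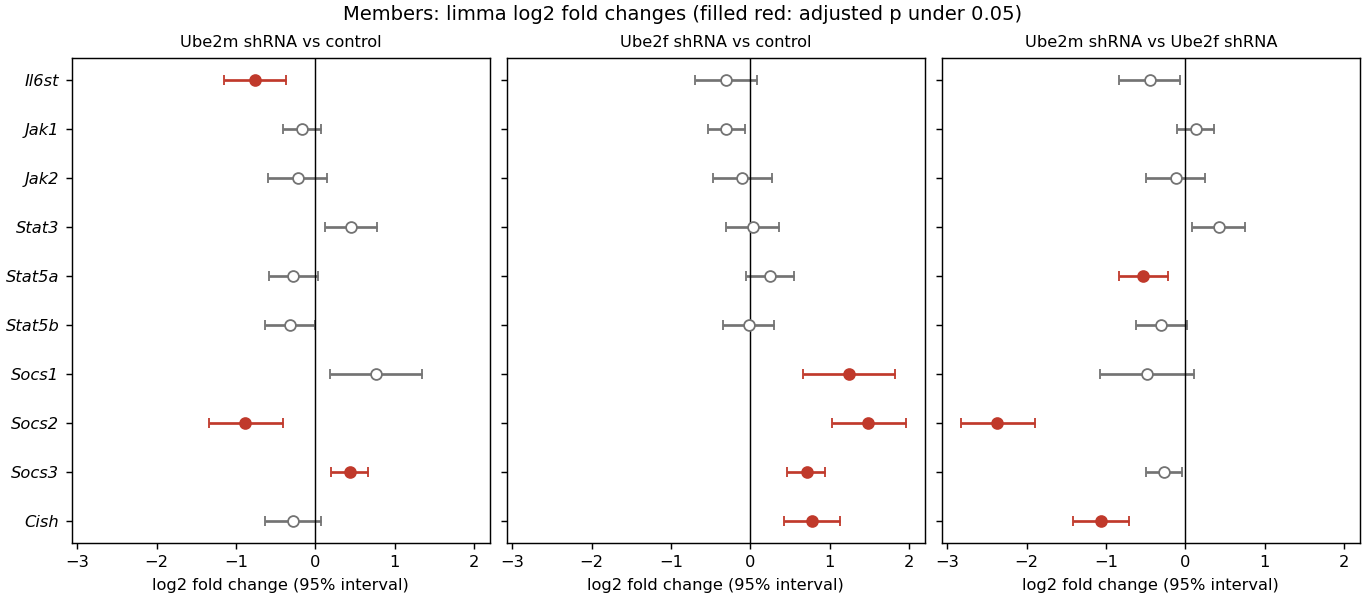
The horizontal axes give limma's log2 fold change with its 95% interval for the 10 genes, in the Ube2m and Ube2f comparisons with control and between the 2 hairpins. Filled red points passed the threshold. In the middle panel the 4 filled points are Socs1, Socs2, Socs3 and Cish, from 0.71 to 1.49, and in the right panel Socs2 lies furthest left at -2.37.

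None of the remaining SOCS genes was called as higher. Of Socs4, Socs5, Socs6 and Socs7 none passed with Ube2f shRNA (median log2 fold change -0.14). With Ube2m shRNA 2 of the 4 fell (median -0.26), where 6.12% of all genes were called lower. Socs4, which restrains EGF receptor signalling, read 657.7, 531 and 783.3 with Ube2m shRNA, against 1152, 1132.7 and 1006.5 with control shRNA. Those arrays did not overlap (-0.74, adjusted p = 0.0105; adjusted p = 0.0567 without Ube2m replicate 2), but the mean over all its probe sets gave -0.09 (adjusted p = 0.815). Socs4 was also lower with Ube2m than with Ube2f shRNA (-0.64, adjusted p = 0.0134). That call was lost by the mean of its probe sets (-0.18, adjusted p = 0.566) and without Ube2m replicate 2 (adjusted p = 0.0697). Socs5 gave -0.37 (adjusted p = 0.0393), a call kept in 2 of 9 fits without 1 array. The adjusted p was 0.138, 0.136 and 0.0624 without Ube2m replicates 1, 2 and 3, 0.0536 without Ube2f replicate 1, and 0.083, 0.052 and 0.1 without control replicates 1, 2 and 3.

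Among the parts of the SOCS-box ligase, Rnf7, the RING partner of Cul5, gave -0.48 with Ube2m shRNA (adjusted p = 0.0363), and the other 4 genes tested did not pass. The share of all genes called lower there was 6.12%. The call for Rnf7 was lost in 5 of 9 fits without 1 array: it missed the threshold without Ube2m replicate 1 (adjusted p = 0.0983), Ube2m replicate 3 (0.11), control replicate 1 (0.0564), control replicate 2 (0.114) or control replicate 3 (0.0618). Rnf7 also missed it in 6 other settings, among them the mean of its probe sets (-0.41, adjusted p = 0.0838) and arrays centred on their medians (-0.57, adjusted p = 0.142). No gene of this group passed with Ube2f shRNA, with a median of 0.03 beside 0.01 for all genes.

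Among 13 other cytokine receptors tested, 2 fell with Ube2m shRNA and 1 with Ube2f shRNA, where 6.12% and 2.96% of all genes were called lower. Osmr, which pairs with Il6st to form the oncostatin M receptor, read 631.8, 638.2 and 661.7 with Ube2m shRNA, 878.5, 778.5 and 1043.5 with Ube2f shRNA and 1240.9, 1188.7 and 1224.3 with control shRNA. No groups overlapped, and the Ube2m value of -0.9 (SE 0.12, adjusted p = 0.000803) passed in 9 of 9 fits without 1 array. The mean over all probe sets of Osmr did not pass with Ube2m shRNA (-0.54, adjusted p = 0.101). On its main probe set Osmr gave -0.44 with Ube2f shRNA (adjusted p = 0.0571). Ghr, the growth hormone receptor, averaged 1870 ± 39.2, 1860 ± 292 and 2840 ± 237 in the Ube2m, Ube2f and control groups (SD, n = 3 each). It fell with Ube2m shRNA (-0.59, adjusted p = 0.0107) and with Ube2f shRNA (-0.61, adjusted p = 0.0127), though without Ube2m replicate 2 or Ube2f replicate 1 the adjusted p was 0.0517 and 0.0538. On the probe set left when _x_at and _s_at types are dropped, Ghr gave 0.28 with Ube2f shRNA (adjusted p = 0.186). The receptors' median was -0.06 with Ube2m shRNA and -0.04 with Ube2f shRNA.

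Of 16 cytokine ligands listed, 13 had a probe set and 5 passed the low-signal filter. The counts in this paragraph stand beside 3.59% of all genes called higher and 6.12% lower with Ube2m shRNA. With Ube2f shRNA these shares were 2.23% and 2.96%. Il15 rose with Ube2m shRNA, to 331 ± 11.6, against 180 ± 41.7 with control shRNA (0.84, adjusted p = 0.0105; adjusted p = 0.0517 without Ube2m replicate 2). No ligand passed with Ube2f shRNA. Il15 came close there (0.65, adjusted p = 0.0511), at 267.3, 275.6 and 320.1, against 226.4, 145.3 and 169 with control shRNA. Between the hairpins Il15 differed by 0.2 (adjusted p = 0.51). Of 4 other JAK and STAT genes tested, Stat6, which signals for IL-4, fell with Ube2m shRNA, to 1540 ± 38.3, against 2120 ± 180 (-0.45, adjusted p = 0.0149). The adjusted p was 0.0722 without Ube2m replicate 1, 0.0595 without Ube2m replicate 2 and 0.0528 without control replicate 1. It was 0.0682 with arrays centred on their medians and 0.0594 with a beta-actin covariate. Of 15 other inhibitors and adaptors, none passed with Ube2m shRNA. With Ube2f shRNA 1 did, Pias2, a SUMO ligase of the family that binds STATs, at -0.44 (adjusted p = 0.0237). That call was kept in 2 of 9 fits without 1 array; it missed the threshold without Ube2m replicate 2 (adjusted p = 0.0508), Ube2f replicate 1 (0.0819), Ube2f replicate 2 (0.0628), Ube2f replicate 3 (0.0548), control replicate 1 (0.0539), control replicate 2 (0.0574) or control replicate 3 (0.0563). Pias2 also missed it by the mean of its probe sets (-0.13, adjusted p = 0.634), with arrays centred on their medians (-0.5, adjusted p = 0.191), with only the groups compared (0.0689) and with a beta-actin covariate (0.069).

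Known STAT target genes, chosen with earlier results known, moved in both directions. Of 16 STAT3 targets tested, 1 rose and 3 fell with Ube2m shRNA (median 0.01), and 1 rose and 2 fell with Ube2f shRNA (median 0.05). The rise with Ube2f shRNA was that of Fos (1.1, adjusted p = 0.0406), a call kept in 2 of 9 fits without 1 array. Of the falls with Ube2m shRNA, that of Bcl2l1 (-0.61, adjusted p = 0.0329) was kept in 5 of 9. Of 7 STAT5 targets, 1 rose and 2 fell with Ube2m shRNA (median -0.2), and none rose and 1 fell with Ube2f shRNA (median 0.06). Among all genes tested, 3.59% were called higher and 6.12% lower with Ube2m shRNA, and 2.23% higher and 2.96% lower with Ube2f shRNA. The lists share Bcl6, Pim1, Ccnd1, Bcl2l1 and Gadd45g, and many of their genes answer to other pathways too. With Ube2m shRNA, Cebpd, a transcription factor of the acute-phase response, read 703.6, 703.2 and 681.7, against 1527.4, 1227.5 and 1141.2 with control shRNA (-0.87, adjusted p = 0.0016). Pim1, a kinase that promotes survival, read 445.7, 387.8 and 526.5, against 240.2, 267.5 and 239.1 (0.82, adjusted p = 0.00681). In both cases the arrays did not overlap and the call passed in 9 of 9 fits without 1 array, but averaged over all probe sets neither passed (adjusted p = 0.78 and 0.0528). Ccnd1, cyclin D1, fell with Ube2m shRNA (-0.58, adjusted p = 0.0156), with adjusted p of 0.0733, 0.0812 and 0.0722 without Ube2m replicate 1, Ube2m replicate 2 and control replicate 1. Ccnd1 did not pass either by the mean of its probe sets (-0.29, adjusted p = 0.201) or with a beta-actin covariate (adjusted p = 0.072).

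With Ube2f shRNA, Timp1, an inhibitor of matrix proteases, fell to 5570 ± 682, against 9160 ± 1590 with control shRNA (-0.71, adjusted p = 0.00918), and passed in 9 of 9 fits without 1 array, but not when arrays were centred on their medians (-0.78, adjusted p = 0.0884). Bcl6, a transcriptional repressor that STAT5 is known to switch off, read 266.6, 186.2 and 300.3 with Ube2f shRNA, against 405.7, 444.1 and 474.3 with control shRNA. The groups did not overlap (-0.8, adjusted p = 0.0177), and the adjusted p was 0.0526, 0.0533 and 0.0504 without Ube2f replicate 1, Ube2f replicate 2 and control replicate 3. By the mean of its probe sets Bcl6 gave -0.65 (adjusted p = 0.0955), and a beta-actin covariate gave an adjusted p of 0.055. Between the hairpins Bcl6 was higher with Ube2m shRNA than with Ube2f shRNA, 498 ± 38.7 and 251 ± 58.6 (0.97, adjusted p = 0.00228, 9 of 9 fits). Ccnd1 was lower with Ube2m shRNA than with Ube2f shRNA (-0.61, adjusted p = 0.00719). Between the hairpins, 3 of 16 STAT3 targets were higher and 4 lower, and 2 of 7 STAT5 targets were higher and 2 lower. In that comparison 6.37% of all genes were called higher and 9.38% lower. Of these target calls, Myc (0.48, adjusted p = 0.046) was kept in 2 of 9 fits without 1 array. Fos (-0.98, adjusted p = 0.0322) and Pim1 (0.58, adjusted p = 0.0239) were each kept in 5 of 9. The calls for Bcl6, Pim1 and Ccnd1 are counted in both lists.

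**Figure D4:**
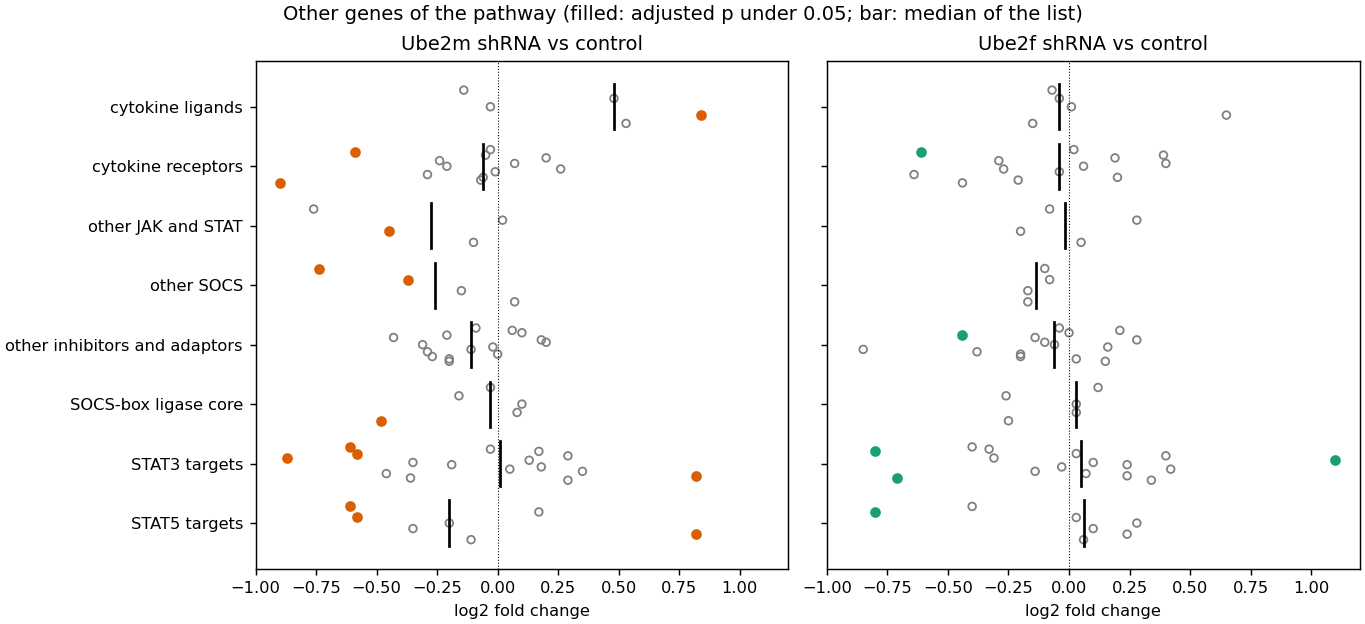
Each point is 1 gene of a pathway list, with its log2 fold change against control on the horizontal axis, for Ube2m shRNA on the left and Ube2f shRNA on the right. Filled points passed the threshold and bars mark the medians of the lists. The 4 other SOCS genes show no filled point with Ube2f shRNA, and the STAT3 targets have filled points on both sides of 0. With Ube2f shRNA their filled point above 0 is Fos, a call kept in 2 of 9 fits without 1 array.

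Over the 9 arrays, the genes whose log2 signal followed each called member most closely were found by Pearson's r among all genes tested, as a description. Socs2 was most like Nfix (r = 0.98), Ier2 (0.978) and Hoxa2 (0.974). Cish was most like Uri1 (0.975), Plekha8 (0.975) and Slc41a2 (0.966). For Socs3 these were Cbx1 (0.974), Rnpep (0.969) and Appl1 (0.964), and for Socs1 Tvp23a (0.94), Fam102a (0.939) and Pofut2 (0.936). Il6st was followed by Tgfb1i1 (0.97), Pprc1 (0.962) and Ppp1r18 (0.959), and Stat5a by Fam118a (0.98), Vps33a (0.975) and Lhfpl2 (0.969). The 9 arrays fall into 3 groups and share their scaling, so r reflects differences between groups as well as within them. Plekha8 averaged 394 ± 32.7, 766 ± 23.8 and 498 ± 25.6 in the Ube2m, Ube2f and control groups, the same order of groups as Cish.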

How the data were processed

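RNA of 9 NIH 3T3 cultures was measured on 1-colour Affymetrix arrays of 45101 probe sets. The deposited values are the intensity of each probe set on a linear scale, made by the authors with MAS5, per the submitters' processing notes; no version or detection call is given in the sources used here. MAS5 scales each array by 1 factor and varies strongly at low signals. Here log2(signal + 16) was used. The 64 control probe sets, 932 with several genes and 9160 without a gene name were left out, leaving 34945. Each gene was represented by its probe set with the highest mean, and genes under the median of all probe sets (6.12, a signal of 53.8) were not tested.

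A mean per group was fitted with limma 3.58.1 in R 4.3.3 (eBayes with trend, prior degrees of freedom 6.55), two-sided, with Benjamini-Hochberg adjustment over 10613 genes. Fold changes and 95% intervals are on the log2(signal + 16) scale. The code was also tested on simulated data. Exact permutation of 3 and 3 arrays has a smallest p of 0.1, so it was not used for single values. The labels call the arrays biological replicates without saying what they share, so p-values measure the spread between these arrays. For arrays no depth is counted; their number limits the precision.

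Members, pathway lists, markers and tests were chosen with earlier results of these data known. Lists held 151 genes; of each, the 2 tested genes with the smallest p per comparison could be named, and in lists of 8 or fewer every gene called. Other genes, among them Thy1 and Fos, were named outside this rule. The result of 1 list is not reported here. Alternatives were other constants, no filter, array-median centring, quantile normalization, other choices of probe set, a replicate block, replicate 3 as a batch term, replicates 1 and 2 only, only the groups compared, and leaving out each array. Fits of every probe set, with beta-actin 3' to 5' ratio as a term, and with centring on the genes tested were added after seeing the data. Sequences are RefSeq's (GRCm38.p6).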

Additional observations from a re-analysis of the deposited data

Results flagged for a closer look

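For 3 genes the change relative to control differed between the hairpins by limma's test of the difference itself, which is the direct comparison of Ube2m with Ube2f shRNA. Its difference of means does not use the control arrays, though these enter the estimate of the spread. The log2 difference was -2.37 for Socs2 (adjusted p = 1.74e-05), -1.06 for Cish (adjusted p = 0.000835) and -0.53 for Stat5a (adjusted p = 0.0224). For each of the 3 genes, all 3 Ube2m arrays were below all 3 Ube2f arrays. Of all genes tested, 15.8% were called in this comparison.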

How the results depend on the processing

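The members' log2 fold changes were recomputed 720 times under alternatives, single arrays left out included. Of these, 36 lost a call in the same direction, 11 gained one, 1 called value reversed, and 10 untested values from replicate 3 alone moved by more than the spread between replicates; 662 kept their call or stayed uncalled. The reversed one was Socs3 with Ube2m shRNA, at -0.08 without _x_at and _s_at probe sets, where it rests on another probe set. For all others the cause was not tested. The members called numbered 3 for Ube2m against control (0 by the mean of all probe sets, 1 with the beta-actin ratio, 0 to 3 leaving out 1 array), 4 for Ube2f against control (2 with the beta-actin ratio, 2 to 4 leaving out 1 array) and 3 between the hairpins (5 with the replicate block, 6 with replicate 3 as a batch term, 2 to 3 leaving out 1 array). Between the hairpins the block called 23.5% and the batch term 25.6% of all genes, against 15.8% in the main fit.

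All genes called for Ube2m against control numbered 1031 (525 with each array centred on its median, 607 by the mean of probe sets, 1866 with the replicate block, 2118 with replicate 3 as a batch term, 1747 with replicates 1 and 2 only, 448 with the beta-actin ratio, 388 to 1177 leaving out 1 array). For Ube2f against control the count was 551 (222, 271, 1225, 1461, 1121 and 245 in the same order, 350 with only the groups compared, 195 to 583 leaving out 1 array). Between the hairpins it was 1672 (868 centred on the array median, 1109 by the mean of probe sets, 2714 with the batch term, 1017 to 1813 leaving out 1 array). The replicate block called 2493 genes there. Centring also moved the share of calls that were higher. For Ube2m against control 381 of 1031 were higher, 124 of 525 with array-median centring and 534 of 966 with centring on the genes tested. For Ube2f against control 237 of 551 were higher, and 50 of 222 with array-median centring; between the hairpins 676 of 1672, and 856 of 1601 with centring on the genes tested. Array-median centring placed the median of all genes at -0.12 for Ube2m against control.

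Deviations from the group mean correlated between same-numbered arrays in replicate 3 (r 0.32 to 0.56) and more weakly in replicate 2 (0.16 to 0.21). In replicate 1, r was 0.2 for Ube2m and Ube2f, 0 for Ube2m and control and 0.01 for Ube2f and control. As deviations sum to 0 in each group, a shift shared by replicate 3 arrays also makes replicates 1 and 2 correlate across groups. These values therefore cannot settle whether the numbers pair the arrays. Each replicate 3 array was most like another replicate 3 array, which did not hold for every array of replicates 1 and 2. The replicate block left 4 members called in each comparison with control; with Ube2m shRNA the one gained was Stat3 (adjusted p = 0.00985). The block called 17.6% of all genes with Ube2m shRNA and 11.5% with Ube2f shRNA.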
